A study of Mus musculus with 2 samples.

Results

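Cadherins and protocadherins are the gene group described here. Members were all non-control probes whose gene name in the scanner files begins with Cdh and a number or with Pcdh, which gave 116 of 41174 probes and 69 of 28045 gene names. They comprise 5 type I classical cadherins, 13 type II classical cadherins, 5 other cadherins, 14 non-clustered protocadherins and 32 clustered protocadherins. The study measured NIH3T3, a fibroblast line derived from mouse embryos, on 2 single-colour Agilent whole-genome arrays. One array held RNA of cells transfected with pcDNA3.1-MARVELD1, and the other RNA of cells transfected with pcDNA3.1 carrying no insert. Both were stable lines obtained with G418, a drug that kills cells lacking the plasmid's resistance gene. The labels do not say from which species the insert came, or whether a line is 1 clone or a pool. With 1 array for each group there are no replicates, the number of arrays limits the precision, and no difference was tested.

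Cadherins are membrane proteins with repeated extracellular domains that bind calcium, and many join neighbouring cells by binding like molecules. Classical cadherins hold cells together at adherens junctions, where their cytoplasmic tails bind catenins that link to actin. Type I members include E-, N- and P-cadherin, and N-cadherin is the one usually associated with mesenchymal cells such as fibroblasts. Protocadherins lack the catenin-binding tail. The clustered ones lie in alpha, beta and gamma clusters on 1 chromosome and are best known for giving neurons distinct surface identities. Each alpha and gamma gene contributes its own first exon, which is joined to exons shared by its cluster, whereas beta genes are separate.

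The probes read short stretches of these transcripts, so 2 sets of probe sequences are shown. The first set carries a 15-base coding motif of the calcium-binding linker between cadherin repeats, in capitals, which marks what the family's genes share. Positions are as the scanner files give them, in the mm9 mouse build, and each sequence is that of the deposited probe. The Pcdh19 probe lies at chrX:130220413-130220472 on the minus strand, the Cdh4 probe at chr2:179581965-179582024 on the plus strand and the Cdh11 probe at chr8:105191906-105191965 on the minus strand.
Pcdh19: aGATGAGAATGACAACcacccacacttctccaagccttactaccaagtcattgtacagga
Cdh4: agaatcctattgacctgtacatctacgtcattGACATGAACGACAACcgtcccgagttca
Cdh11: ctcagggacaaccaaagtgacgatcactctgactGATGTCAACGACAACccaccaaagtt
The motif was present in 3 of 116 member probes, 2.59%, and in 7 of all 41084 probes with usable spots, 0.017%. On the opposite strand it was present in 1 member probe and in 5 of all probes. Such a match describes the letters of the probe alone.

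The second set shows how alike probes of different members can be. The Cdh10 probe lies at chr15:18943342-18943401 and the Cdh20 probe at chr1:106890864-106890923, both on the plus strand, and bases identical between them are in capitals.
Cdh10: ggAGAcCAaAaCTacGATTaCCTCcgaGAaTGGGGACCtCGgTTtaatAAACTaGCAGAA
Cdh20: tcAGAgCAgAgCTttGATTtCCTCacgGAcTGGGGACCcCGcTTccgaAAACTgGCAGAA
Of the 60 bases, 41 were identical, 68.3%. The Cdh20 probe was well above background on both arrays, and this Cdh10 probe on neither.

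The transfected gene was examined first. Marveld1 had 2 probes. One had a processed intensity of 126.4 on the array labelled MARVELD1, against 184.4 on the empty vector array, and the other 6292.8 against 8724.7. Their log2 differences after scaling were -0.42 and -0.34, so neither probe read higher on the array labelled MARVELD1. All directions below therefore refer to the array label. The arrays were alike in quality, with 69.0% and 68.7% of spots well above background on the arrays labelled MARVELD1 and empty vector and negative control medians of 8.8 and 8.5. All 8 fibroblast markers were well above background on both arrays, with summed intensities of 548875.7 on the array labelled MARVELD1 and 661724.4 on the empty vector array. Detection was not particular to them. Of 6 endothelial and 6 neural markers, 6 of each were well above background on the array labelled MARVELD1 and 5 of each on the empty vector array. Of 6 skeletal muscle markers, 5 were so on both arrays. Epithelial markers were in part at background, with 3 of 6 well above it on the array labelled MARVELD1 and 2 of 6 on the empty vector array, and Epcam and Cdh1 were at background on both. Their summed intensities were 461.4 and 375.8 on the arrays labelled MARVELD1 and empty vector, and those of 6 endothelial markers were 1501.3 and 1995.1. Without Cdh5, itself a cadherin, the 5 other endothelial markers summed to 792.8 on the array labelled MARVELD1 and 706.5 on the empty vector array. The 6 neural markers summed to 5300.8 on the array labelled MARVELD1 and 7867.0 on the empty vector array, and the 6 skeletal muscle markers, Cdh15 included, to 1820.7 against 1615.6. These sums are of unscaled intensities, and single markers went both ways. After scaling, 3 neural markers were higher on the array labelled MARVELD1 and 3 lower. Of the 8 fibroblast markers, 2 were higher and 6 lower. Without Cdh15, 2 skeletal muscle markers were higher and 3 lower. Without Cdh5 and Cdh1, all 5 endothelial and 5 epithelial markers were higher. The part of these differences in the results was not tested.

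Every log2 difference below is MARVELD1 minus empty vector, taken after each array's log2 processed intensity was set relative to its 75th percentile, which was 703.3 on the array labelled MARVELD1 and 768.1 on the empty vector array. A ratio of the printed intensities therefore differs slightly from the printed fold. The brightest probe stands for a gene. The lowest intensity among well-measured probes was 36.0 on the array labelled MARVELD1 and 36.5 on the empty vector array, and distance from background is given as a multiple of it. Where only 1 array measured a probe, the fold is a bound against the higher of that lowest intensity and the probe's own reading. Less RNA per cell and fewer cells with the RNA cannot be told apart in such bulk samples.

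Of the 69 genes, 53 (76.8%) were well above background on at least 1 array, 50 of them on both, beside 83.9% of all genes on at least 1. Among the 53, 7 were at least 2-fold different, 13.2%, which is set beside 8.92% of all 16532 detected genes. The 7 were 5 higher and 2 lower on the array labelled MARVELD1, and over all genes 5.39% were higher and 3.53% lower. This split of all genes, 891 higher and 584 lower, moved with the scaling and was 664 higher and 715 lower when the array medians were set equal, whereas the members stayed at 5 higher and 2 lower. The members' split was 1 higher and 2 lower with normexp background correction followed by quantile normalization, and 3 higher and 3 lower with the mean of all probes of a gene. Of the 7, 6 were clustered protocadherins and the other was Cdh2. The median log2 difference was 0.27 over the 53 members and 0.19 over all detected genes.

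Sizes of difference were also set beside the technical spread of probes printed repeatedly on each array. The SD of a single-spot difference was 0.65 on the log2 scale at intensities under 100, 0.45 at 100 to 300, 0.33 at 300 to 1000 and 0.17 from 1000 upward. Of the 53 members, 28 (52.8%) differed by more than 1 such SD and 17 (32.1%) by more than 2, beside 55.3% and 32.1% of all detected genes. Members were dimmer, with median intensities of 232.7 and 194.5 on the arrays labelled MARVELD1 and empty vector. Those of all detected genes were 561.5 and 606.3, so these shares are not like for like. Of the detected clustered protocadherins, 53.8% and 34.6% passed 1 and 2 SD, beside 39.0% and 15.3% of genes of like intensity, described below. The spread of repeated spots is within an array and does not measure that between cultures. In the plot of difference against brightness, most members lie in the dimmer range, and 20 of the 53 reached 10 times the lowest well-measured intensity on at least 1 array.

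**Figure D1:**
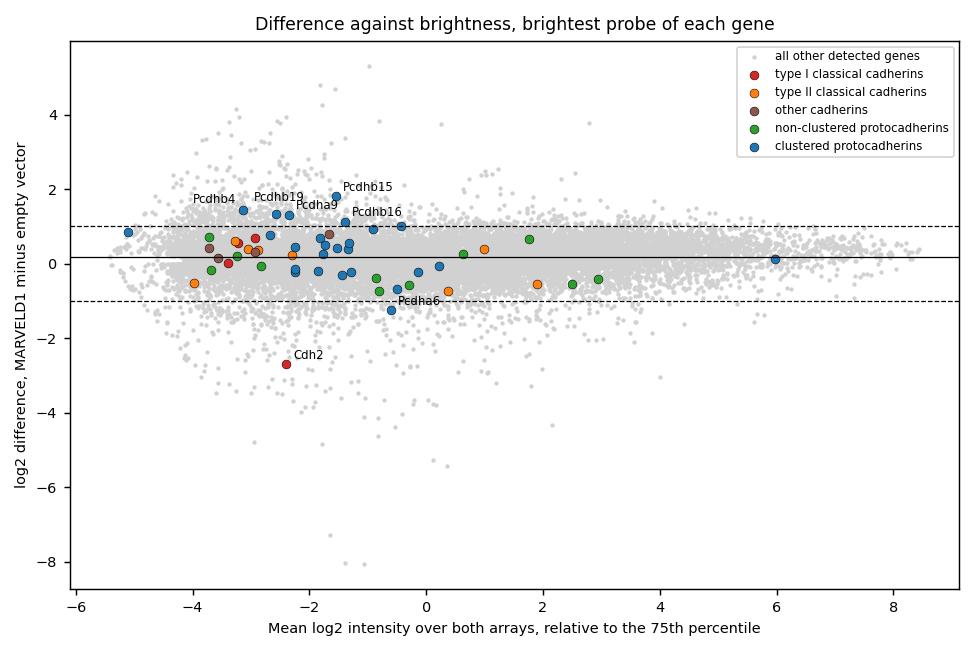
Log2 difference (MARVELD1 minus empty vector) against mean log2 intensity relative to the 75th percentile, 1 point for each detected gene, with members coloured by class and other genes grey. Dashed lines mark 2-fold and the solid line the median of all detected genes, 0.19; Cdh2 at -2.71 and Pcdhb15 at 1.81 are the members farthest from it.

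Among the type I classical cadherins, 4 of 5 were detected, and Cdh2, which encodes N-cadherin, had the largest difference of all members. Its brightest probe read 52.3 on the array labelled MARVELD1, against 372.5 on the empty vector array, 1.46 and 10.2 times the lowest well-measured intensity, a log2 difference of -2.71 or 6.52-fold lower. The files place only 30 bases of this probe on the genome. A second Cdh2 probe went the opposite way, with 52.0 on the array labelled MARVELD1 and 7.7 on the empty vector array, where it was not well above background, so that it was at least 1.55-fold higher. This bound, 0.64 on the log2 scale, is a minimum and is close to the repeated-spot SD of 0.65 at such intensities. On the array labelled MARVELD1 the second probe was 1.45 times the lowest well-measured intensity. The remaining probe read 10.9 and 11.1 on the arrays labelled MARVELD1 and empty vector and was well above background on neither. These 2 other probes are annotated with accessions of cDNA clones, and the first with the RefSeq transcript. The 3 probes thus do not give Cdh2 a single direction.

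The other type I members were dim. Cdh3, the P-cadherin gene, had 116.4 on the array labelled MARVELD1 and 79.3 on the empty vector array, a log2 difference of 0.68. Cdh4, the R-cadherin gene, had 90.8 and 67.9 on the arrays labelled MARVELD1 and empty vector, a difference of 0.55, and its 2 other probes, the one shown above included, were not well above background on either array. Cdh15, the M-cadherin gene of muscle, read 67.0 on the array labelled MARVELD1 and 72.3 on the empty vector array, a difference of 0.02 that turned negative under other scalings. Cdh1, the E-cadherin gene, read 8.8 on the array labelled MARVELD1 and 8.5 on the empty vector array, at the level of the negative controls.

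Of the type II classical cadherins, 8 of 13 were detected and 0 were past 2-fold by their brightest probe. Cdh11, the gene of a cadherin known from mesenchymal and bone-forming cells, read 1598.4 on the array labelled MARVELD1 and 1329.0 on the empty vector array, a log2 difference of 0.39, at 44.5 and 36.4 times the lowest well-measured intensity. This is the Cdh11 probe whose sequence is given above. Another Cdh11 probe, 34010 bases away toward the 3' end, read 7.9 on the array labelled MARVELD1, where it was not well above background, and 85.8 on the empty vector array, at least 2.19-fold lower. The remaining probe, 0.4 kb beyond it, was at background on both arrays, with 7.7 and 8.1 on the arrays labelled MARVELD1 and empty vector.

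Cdh24 and Cdh5 also had probes that differed from each other. Cdh24 read 2166.8 on the array labelled MARVELD1 and 3468.2 on the empty vector array, a difference of -0.55. Its second probe read 719.6 against 405.8, a difference of 0.95, and lies on the strand opposite to the RefSeq gene, the only 1 of 49 member probes with a known gene strand to do so. Cdh5, the VE-cadherin gene of endothelium, read 708.5 on the array labelled MARVELD1 and 1288.6 on the empty vector array, a difference of -0.74, and its second probe read 52.2 against 190.0, a difference of -1.74. Both Cdh5 probes were lower on the array labelled MARVELD1, and only the dimmer one was past 2-fold.

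The remaining detected type II genes were closer to background. Cdh10, Cdh7, Cdh20 and Cdh18 had differences of 0.23, 0.36, 0.39 and 0.60, with intensities on the array labelled MARVELD1 of 154.8, 108.5, 96.5 and 89.0 and on the empty vector array of 143.8, 92.3, 80.6 and 64.2. Cdh6 was well above background on the empty vector array alone, with 37.4 on the array labelled MARVELD1 and 58.3 on the empty vector array, at least 1.43-fold lower.

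The other cadherins are structurally more distant members, and 4 of 5 were detected, with 0 past 2-fold. Cdh26 read 291.9 on the array labelled MARVELD1 and 184.4 on the empty vector array, a log2 difference of 0.79. Cdh16, the kidney cadherin gene, read 102.7 against 90.7, and Cdh13, the gene of a cadherin held in the membrane by a lipid anchor, 62.5 against 62.0, which gave differences of 0.31 and 0.14. The Cdh13 difference turned negative under quantile normalization and loess. Cdh23, known from the tip links of hearing, read 61.4 on the array labelled MARVELD1 and 50.6 on the empty vector array.

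**Figure D2:**
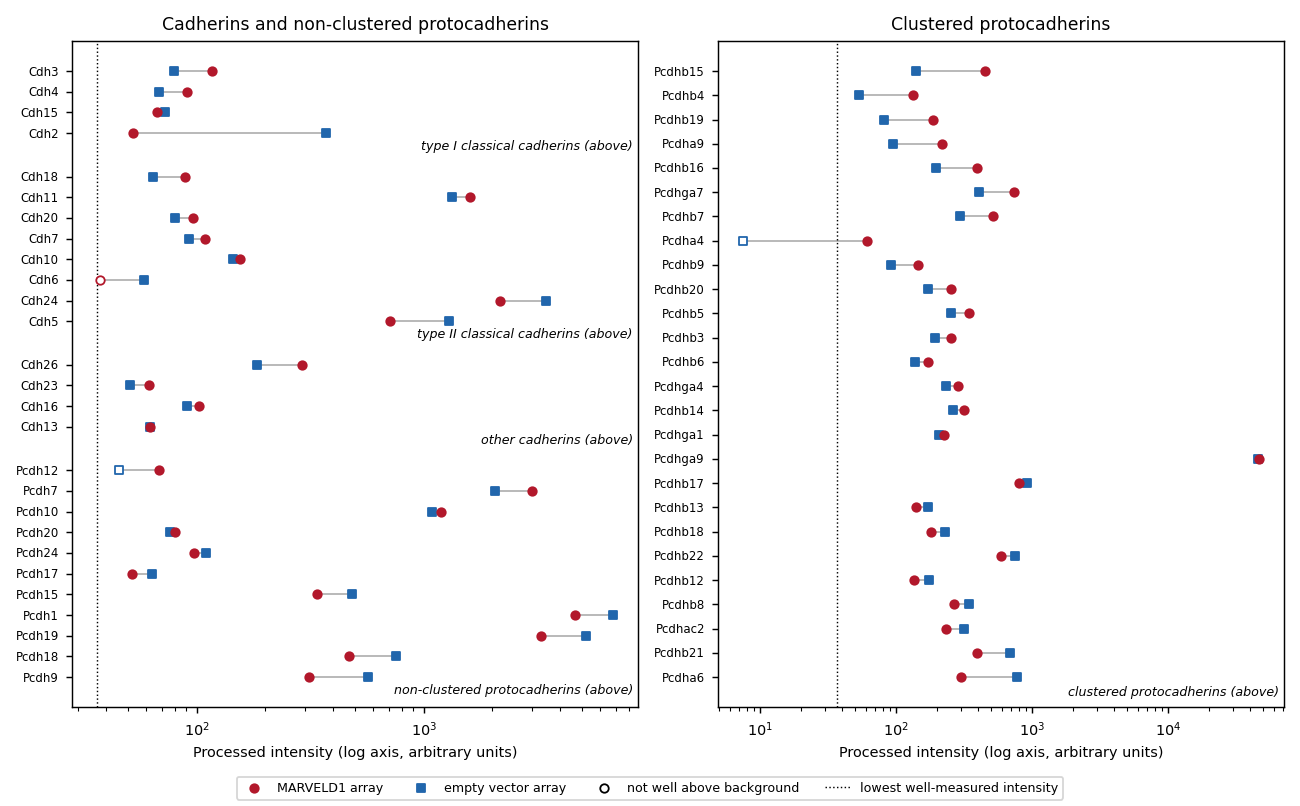
Processed intensity (log axis, arbitrary units) of the brightest probe of each of the 53 detected genes, MARVELD1 as red circles and empty vector as blue squares, by class. Open symbols were not well above background, and the dotted line is the lowest well-measured intensity of the empty vector array, 36.5; Cdh2 and Pcdhb15 show the widest gaps measured on both arrays.

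Non-clustered protocadherins had 11 of 14 genes detected and 0 past 2-fold. Their median log2 difference was -0.16, which was 0.35 below that of all detected genes, and it stayed below 0 under every scaling tried. Pcdh1 read 4654.5 on the array labelled MARVELD1 and 6796.1 on the empty vector array, a difference of -0.42. Pcdh19, which in humans is mutated in an epilepsy that mainly affects girls, read 3269.3 against 5197.1, a difference of -0.54, and its second probe, shown above, 262.0 against 338.2, a difference of -0.24. Pcdh7 went the other way, with 2994.2 on the array labelled MARVELD1 and 2064.8 on the empty vector array, a difference of 0.66, and 0.11 by its second probe. By these brightest probes, all 3 genes were at least 56.5 times the lowest well-measured intensity on both arrays.

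Pcdh9 was lower on the array labelled MARVELD1 by all 3 of its measured probes. They read 312.3, 59.5 and 55.8 on the array labelled MARVELD1 and 565.5, 92.8 and 96.3 on the empty vector array, and their differences were -0.73, -0.51 and -0.66. Pcdh18 read 470.1 against 757.2, a difference of -0.56, and Pcdh15, the gene of the other tip-link protein, 340.0 against 483.1, a difference of -0.38. Pcdh10 had 3 measured probes with differences of -1.16, 0.27 and -0.27, annotated with 3 different RefSeq transcripts. The first read 67.2 on the array labelled MARVELD1 and 164.2 on the empty vector array, and the second, the brightest, 1192.3 against 1083.4. Pcdh24, called Cdhr2 in RefSeq, had a brightest probe at 97.0 on the array labelled MARVELD1 and 109.9 on the empty vector array and another at 99.0 against 66.2, which gave differences of -0.05 and 0.71.

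Of the clustered protocadherins, 26 of 32 genes (81.2%) and 37 of 44 probes (84.1%) were well above background on at least 1 array, beside 83.9% of all genes and 71.9% of all probes. Of the 26 genes, 6 were past 2-fold, 23.1%, which is set beside 11.6% of 2644 genes of like intensity and 8.92% of all detected genes. Genes of like intensity are non-members whose mean brightness lay within the interquartile range of the 26 genes. Of the 6 genes past 2-fold, Pcdhb4, Pcdhb19 and Pcdha9 were dimmer than that range and Pcdha6 brighter. The shares therefore do not cover the same range of brightness. The 6 were 5 higher and 1 lower on the array labelled MARVELD1, and among genes of like intensity 6.39% were higher and 5.18% lower. Their median log2 difference was 0.43, against 0.11 for genes of like intensity and 0.19 for all. Relative to the median of all genes, 16 were above it and 10 below, a count that did not change with the scaling.

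Of the alpha cluster, all 4 genes on the array were detected, and they went both ways. Pcdha6 read 297.9 on the array labelled MARVELD1 and 776.9 on the empty vector array, a log2 difference of -1.26 or 2.39-fold lower. Pcdha9 read 215.8 against 95.3, a difference of 1.31 or 2.47-fold higher. Pcdha4 read 60.6 on the array labelled MARVELD1 and 7.5 on the empty vector array, where it was not well above background, and was at least 1.81-fold higher. This bound depends on how probes printed several times are called: with at least, rather than more than, 50% of their spots well above background the lowest intensity on the empty vector array became 33.0, the bound passed 2-fold, and the count became 8 of 53 beside 9.09% of all genes. Pcdhac2 had a difference of -0.32 by its brightest probe, 232.7 against 316.6, and another of its 3 probes was at least 3.36-fold lower, with 25.7 on the array labelled MARVELD1 and 132.0 on the empty vector array. The remaining Pcdhac2 probe read 106.3 against 102.9, a difference of 0.17. The brightest probe and the 3.36-fold lower one lie farthest along the alpha cluster. In RefSeq, all 14 alpha genes end within 2000 bases of the median end of their cluster. These far probes may therefore read several alpha genes and cannot be assigned to Pcdhac2 alone.

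Beta genes made up most of the detected clustered members, 18 of 22, and 4 of the 18 were past 2-fold, all higher on the array labelled MARVELD1. Pcdhb15 read 449.1 on the array labelled MARVELD1 and 139.6 on the empty vector array, 12.5 and 3.82 times the lowest well-measured intensity, a log2 difference of 1.81 or 3.51-fold higher. A second Pcdhb15 probe that shares 20 bases of its position with the first read 315.8 against 79.6, a difference of 2.12. Pcdhb4 read 131.9 on the array labelled MARVELD1 and 53.0 on the empty vector array, a difference of 1.44, from a single probe that was 1.45 times the lowest intensity on the empty vector array. These 2 genes had the widest gaps among the beta genes.

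The other 2 beta genes past 2-fold were so by 1 of their 2 probes. Pcdhb19 read 187.5 on the array labelled MARVELD1 and 80.7 on the empty vector array, a difference of 1.34, and its second probe 60.4 against 43.3, a difference of 0.61. Pcdhb16 read 393.5 on the array labelled MARVELD1 and 197.5 on the empty vector array, a difference of 1.12, and its second probe 192.3 against 146.5, a difference of 0.52. All 4 probes of these genes were higher on the array labelled MARVELD1. Pcdhb7 lay just under 2-fold, with 516.2 against 295.7 and a difference of 0.93.

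Neighbouring beta genes did not share 1 direction, as the plot in chromosomal order shows. Pcdhb3 to Pcdhb7 were all higher on the array labelled MARVELD1, with differences of 0.44 to 1.44. Pcdhb8, Pcdhb12 and Pcdhb13 had differences of -0.24, -0.23 and -0.16. Pcdhb9, which lies between Pcdhb8 and Pcdhb12, was higher, with 143.6 against 91.9 and a difference of 0.77. At the far end, Pcdhb21 read 391.4 on the array labelled MARVELD1 and 687.9 on the empty vector array, a difference of -0.69, and Pcdhb22 read 590.9 against 749.9. Pcdhb17 had 1 probe at 797.4 against 912.5 and another, 356 bases away, at 653.8 against 371.3, which gave differences of -0.07 and 0.94.

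**Figure D3:**
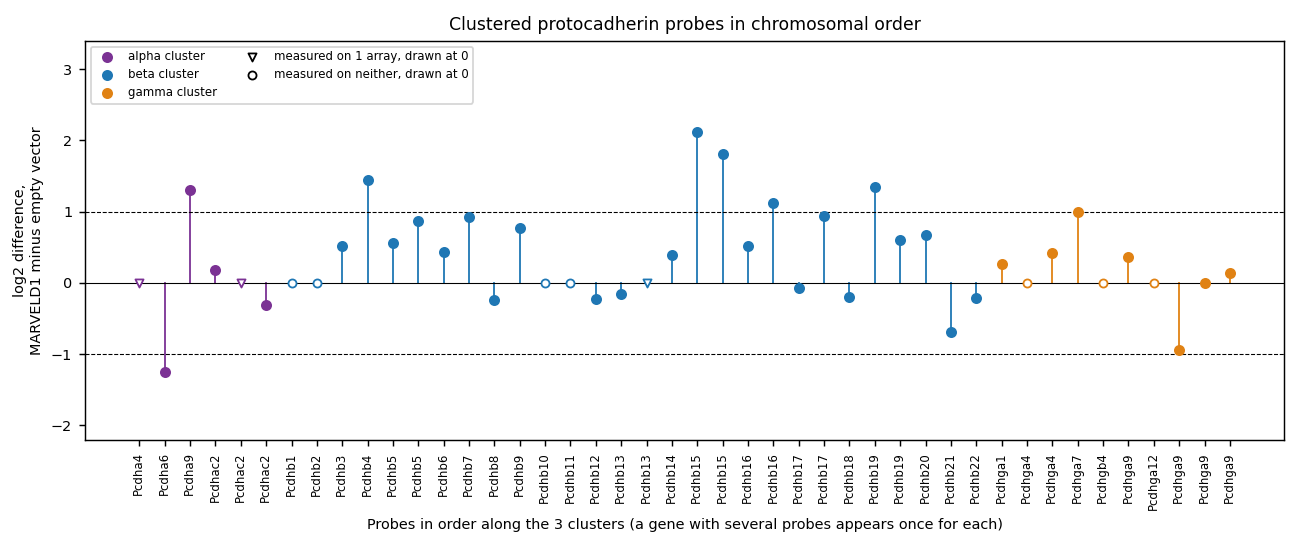
Log2 difference (MARVELD1 minus empty vector) of each clustered protocadherin probe in order along the alpha, beta and gamma clusters, with open symbols at 0 for probes not measured on both arrays. Dashed lines mark 2-fold; the beta probes past it are those of Pcdhb4, Pcdhb15, Pcdhb16 and Pcdhb19, all above 0.

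Of the gamma cluster, 4 of 6 genes were detected and 0 were past 2-fold. Pcdhga7 read 739.0 on the array labelled MARVELD1 and 404.1 on the empty vector array, a log2 difference of 0.998, just under the limit. Pcdhga4 read 282.5 against 230.6 and Pcdhga1 224.7 against 205.0, with differences of 0.42 and 0.26. Pcdhga9 had 4 probes. In RefSeq, all 21 gamma genes end within 2000 bases of the median end of their cluster, as do all 14 alpha genes, whereas 0 of 22 beta genes do so, and 2 Pcdhga9 probes that overlap by 40 bases lie at this far end. They read 46431.9 and 36497.5 on the array labelled MARVELD1 and 46248.9 and 39787.3 on the empty vector array, with differences of 0.13, which turned negative under quantile normalization and loess, and 0.00. The most upstream probe, 100.6 kb before the next, read 83.2 on the array labelled MARVELD1 and 71.0 on the empty vector array, a difference of 0.36, and the next 40.3 against 84.8, a difference of -0.95. A probe placed at a shared end may read several genes of its cluster, so the far pair cannot be assigned to Pcdhga9 alone.

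Over the whole group, 15 genes had more than 1 probe measured on both arrays, and in 6 of them the signs differed between probes. The SD of the log2 difference between probes of 1 gene was 0.53 in members and 0.54 over 5486 genes, so members' probes disagreed about as much as those of other genes. Among the 2 genes nearest to the limit on each side, Pcdhb16 at 1.12 and Pcdha9 at 1.31 lay inside it and Pcdhga7 and Pcdhb7 outside for higher values. For lower values, Pcdha6 and Cdh2 lay inside, and Cdh5 at -0.74 and Pcdh9 at -0.73 outside.

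**Figure D4:**
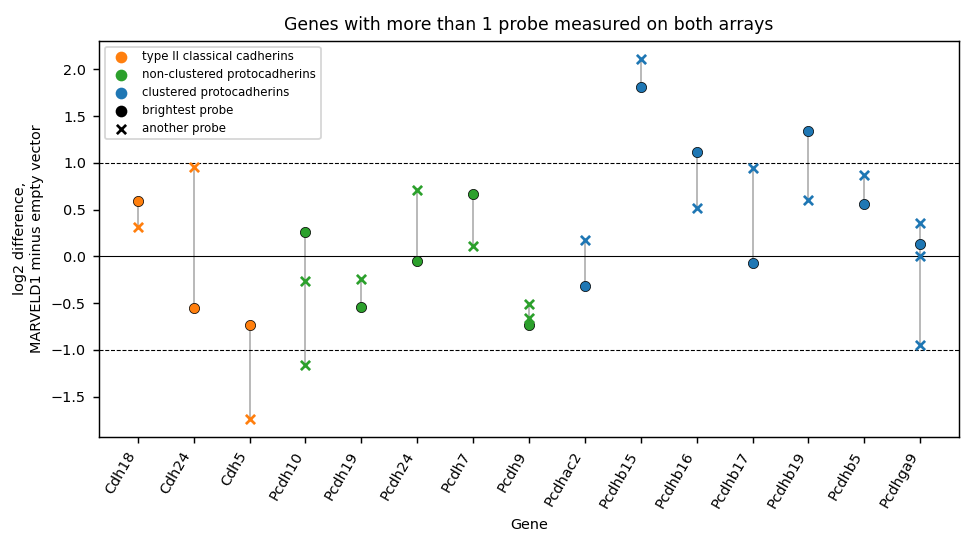
Log2 difference (MARVELD1 minus empty vector) of each probe of the 15 genes with more than 1 probe measured on both arrays, the brightest probe as a filled circle and the others as crosses. Dashed lines mark 2-fold; Cdh24, Pcdh10, Pcdh24, Pcdhac2, Pcdhb17 and Pcdhga9 have probes on both sides of 0.

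The 16 genes not well above background on either array were Cdh1, Cdh8, Cdh9, Cdh12, Cdh17, Cdh19, Cdh22, Pcdh8, Pcdh11x, Pcdh21, Pcdhb1, Pcdhb2, Pcdhb10, Pcdhb11, Pcdhga12 and Pcdhgb4. Their 17 probes read 7.8 to 43.8 on the array labelled MARVELD1 and 7.6 to 39.3 on the empty vector array. Several, such as Cdh12 at 43.8 and 39.3 on the arrays labelled MARVELD1 and empty vector, were at the edge of detection, and a difference in them was not detectable.

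Genes that act with cadherins were read from a list of 77, of which 72 were detected and 12 were past 2-fold, 16.7%, beside 8.92% of all detected genes. The 12 were 7 higher and 5 lower on the array labelled MARVELD1, and over all genes 5.39% were higher and 3.53% lower. The median log2 difference of the 72 was 0.20, beside 0.19 for all detected genes. Among catenins and plaque proteins, 3 of 16 detected were past 2-fold by their brightest probe. Ctnna2 and Vcl were not, with 0.39 and -0.35, but their other measured probes had differences of 1.20 and -1.01. Ctnnb1, the beta-catenin gene, read 27970.3 on the array labelled MARVELD1 and 21663.3 on the empty vector array, a difference of 0.50, and its 2 other measured probes had differences of -0.60 and 0.20. Ctnna1, the alpha-catenin gene, read 37136.4 against 33572.1, a difference of 0.27, with -0.24 by its other probe. Jup, the plakoglobin gene, read 42.2 on the array labelled MARVELD1, where it was not well above background, against 123.7, at least 2.68-fold lower. Ctnnal1 read 476.7 against 1352.4, a difference of -1.38, with -0.33 by its other probe, and Plekha7, of the zonula adherens, 241.6 against 113.8, a difference of 1.21, with 0.12 by its other probe.

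Cadherin-domain proteins outside the naming rule had 3 of 14 detected genes past 2-fold by their brightest probe, all higher. Clstn1 had a difference of 0.25 by that probe and -1.06 by its other measured probe. Celsr1, of planar cell polarity, read 348.3 on the array labelled MARVELD1 and 72.3 on the empty vector array, a difference of 2.40. Clstn3, a calsyntenin gene, read 690.9 against 203.4, a difference of 1.89, and Fat2 113.8 against 56.5, a difference of 1.14. Of 4 detected nectin genes, 1 was past 2-fold. This was Nectin4, with 179.1 on the array labelled MARVELD1 and 72.8 on the empty vector array, a difference of 1.43, whereas Nectin3 read 4331.1 against 7444.7, a difference of -0.65, with -1.39 and -0.96 by its 2 other probes. Of 7 detected desmosomal cadherin genes, 1 was past 2-fold. This was Dsg1c, with 126.0 on the array labelled MARVELD1 and 54.7 on the empty vector array, a difference of 1.33, whereas Dsg1a read 42.8 against 66.0, a difference of -0.50. The genes of 2 proteins of cadherin shedding read lower. Adam10, the protease that cuts N-cadherin, had 59.4 on the array labelled MARVELD1 and 170.0 on the empty vector array, and Ncstn, a subunit of gamma-secretase, 56.0 against 189.4. Their differences were -1.39 and -1.63, each from 1 probe.

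Transcription factors that repress or induce cadherins were all 9 detected and 0 were past 2-fold by their brightest probe. Zeb2 had a difference of 0.14 by that probe, and -0.97 and 2.69 by its 2 other measured probes. Tcf3 had 0.04 by its brightest probe and -1.08 by its other, and Tcf4 -0.19 and -0.96. Snai2 read 10819.4 on the array labelled MARVELD1 and 14776.0 on the empty vector array, and Twist2 10838.5 against 15584.7, with differences of -0.32 and -0.40. All 7 regulators of the protocadherin clusters were detected and 0 were past 2-fold by their brightest probe. Rad21 had a difference of 0.13 by that probe and -1.21 by its other measured probe. Smc1a and Smc3 had 0.42 and 0.57 by their brightest probes, and -0.25 and -0.37 by their others. Ctcf, whose protein folds cluster promoters to their enhancers, read 4061.3 on the array labelled MARVELD1 and 3176.7 on the empty vector array, a difference of 0.48, and Smchd1, a repressor of the clusters, 11791.7 against 7138.9, a difference of 0.85, with 0.00 by its other probe. Of 8 protocadherin effectors, Wasf1 and Abi2, both of the WAVE complex that drives actin branching, were past 2-fold by their brightest probe, in opposite directions. Wasf1 read 279.1 on the array labelled MARVELD1 and 661.5 on the empty vector array, a difference of -1.12, and Abi2 2460.7 against 1263.0, a difference of 1.09. Nckap1 and Cyfip2 had differences of -0.49 and 0.22 by their brightest probes, and -2.07 and 2.10 by their other measured probes.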

How the data were processed

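RNA of 2 NIH3T3 lines was measured on 1 single-colour Agilent array each. Per the file headers, the authors' deposited scanner files give the fluorescence intensity of each spot from Agilent Feature Extraction 9.5.3.1, and the processed intensity used here is background-subtracted, with no scaling between arrays. The log2 of that intensity minus the array's 75th percentile was computed and averaged over the spots of a probe. Controls and outlier spots (223 on the array labelled MARVELD1 and 116 on the empty vector array) were left out. A probe was called well above background where more than 50% of its usable spots carried that flag in the deposited files. A first version, at least 50%, was replaced after its results had been seen, to keep to how these data had been processed earlier. The change moved the count of members past 2-fold to 7, and both counts are reported. Non-member genes were named through a RefSeq table of GRCm38.p6 and members by the file's names. The authors also deposited a normalized intensity table, which holds 69 of the 116 member probes and served as an alternative. Normalization alternatives used R 4.3.3 with limma 3.58.1, and the rest Python 3.11.15 with numpy 2.4.6 and pandas 2.3.3. The gene summary was tested on simulated data. The members, gene lists and settings were chosen with earlier results of these data known. Named with full values are members past 2-fold, the 3 brightest of each class, the 2 nearest to the limit on each side and those whose probes have opposite signs with both at least 1.5-fold different, and the partners past 2-fold. Of the brightest partners only some are described, picked with their values known. No annotation of mm9 was used here, so exon and untranslated positions are not given.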

Additional observations from a re-analysis of the deposited data

How the results depend on the processing

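The count of members past 2-fold, 7 of 53, was 20 at 1.5-fold, 2 at 3-fold, 11 of 69 with no filter on dim probes and 3 with normexp background correction followed by quantile normalization, settings changed together and called normexp below. It was 8 with at least 50% of the spots well above background, and 8 with plain differences in place of bounds, both added after seeing the data, and 6 with the mean of all probes, with 5 of the 7 genes among those 6. The most 3-prime probe gave 7, of which 6 were the same genes. The array median as scale, quantiles, loess and the authors' values each gave the same 7 genes. Of all genes, 8.92% were past 2-fold by the main settings, 10.4% with no filter on dim probes and 4.43% with normexp. The share was 9.09% with at least 50% of the spots and 9.99% with plain differences. With the mean of all probes it was 8.08%, and with the most 3-prime probe 9.61%. No share over all genes is given for 1.5-fold or 3-fold, so counts there have none beside them. The count of partners, 12 of 72, was 21 at 1.5-fold, 3 at 3-fold and 4 with normexp, the last beside 4.43% of all genes. Cdh2, at -2.71, was -1.03 with the mean of all its measured probes and -1.80 with normexp. Besides Cdh2, some single values shifted from the main setting by more than the SD of repeated spots. With normexp these were Pcdhb15 at 1.29, Pcdhb19 at 0.81 and Pcdhb4 at 0.69. The others were Pcdhb19 at 0.61 by its most 3-prime probe and Pcdha4 at 3.14 without a bound. The cause of these shifts was not tested beyond what each setting changes by construction. None of the 7 genes, nor Pcdha4, turned its direction under these alternatives. The median of all detected genes moved from 0.19 to between 0.03 and 0.09 under the other scalings and the normexp correction, and the members' median stayed 0.06 to 0.16 above it over all settings. Readings near 36 units limit what can be seen of dim genes. No paired analysis was possible because each group has 1 array.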
